A study of Homo sapiens with 8 samples.

Results

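The mitochondrial carriers of the solute carrier family 25 were taken as every listed gene whose symbol is SLC25A followed by a number. The rule found 45 of the 23346 listed genes, and it used no measured value. Polyadenylated RNA was sequenced from hCMEC/D3, a human brain endothelial line made by immortalising cells of the small vessels and grown as a stand-in for the barrier between blood and brain. The 8 libraries were labelled as replicates of the line, with no treatment named, and form 1 group with no second condition, so carriers were compared with each other within each library. The labels do not say whether the replicates were separate cultures, so a p-value here measures the spread between these libraries, which may be technical. One line stands for 1 immortalised cell population and not for brain endothelium in general.

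Most carriers of this family are inner membrane proteins that move metabolites between the cytosol and the mitochondrial matrix, usually as an exchange of one solute for another. The ADP/ATP carriers bring ADP in and send ATP out, and the phosphate carrier supplies the phosphate that ATP synthase joins to ADP. Other members carry aspartate and glutamate, iron, di- and tricarboxylates, amino acids and cofactors, and several have close paralogs that share a substrate and differ in the tissues that use them. Brain endothelial cells are known for a high mitochondrial content.

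Promoters of the 3 ADP/ATP carriers that were detected are shown because these paralogs had very different levels, and that of SLC25A29 because its CPM had the largest spread over the 8 libraries. Each is the 250 bases before the RefSeq start of the gene, 5′ to 3′ on the strand of the gene, from RefSeq (GRCh38), placed on GRCh37 by an exact match. The RefSeq start lies slightly inside the interval listed for each of these genes, so the end of each window overlaps that interval. Capitals mark matches on either strand to the letters of common promoter elements. The GC box was searched as GGGCGG. The box named for its letters was searched as CCAAT. The TATA box was searched as TATAAA. The core bound by ETS factors was searched as CGGAAG. The E-box was searched as CACGTG and had no match in these windows. The windows are chrX:118602157-118602406 (plus strand) for SLC25A5, chrX:1511007-1511256 (minus strand) for SLC25A6, chr4:186064170-186064419 (plus strand) for SLC25A4 and chr14:100772782-100773031 (minus strand) for SLC25A29.
SLC25A5: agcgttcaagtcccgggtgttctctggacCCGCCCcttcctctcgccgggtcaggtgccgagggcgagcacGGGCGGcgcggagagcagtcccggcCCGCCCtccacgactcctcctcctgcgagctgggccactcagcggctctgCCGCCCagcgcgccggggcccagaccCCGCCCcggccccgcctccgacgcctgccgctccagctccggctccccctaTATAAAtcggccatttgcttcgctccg
SLC25A6: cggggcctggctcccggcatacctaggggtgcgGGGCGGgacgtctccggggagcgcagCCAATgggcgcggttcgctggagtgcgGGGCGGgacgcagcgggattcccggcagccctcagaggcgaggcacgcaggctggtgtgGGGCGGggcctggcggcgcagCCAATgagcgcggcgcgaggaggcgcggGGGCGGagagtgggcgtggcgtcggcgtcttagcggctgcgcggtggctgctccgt
SLC25A4: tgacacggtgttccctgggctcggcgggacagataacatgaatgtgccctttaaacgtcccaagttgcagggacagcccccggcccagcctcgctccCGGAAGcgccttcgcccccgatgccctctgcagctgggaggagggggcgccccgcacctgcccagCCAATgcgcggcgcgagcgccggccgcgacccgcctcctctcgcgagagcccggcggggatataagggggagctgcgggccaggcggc
SLC25A29: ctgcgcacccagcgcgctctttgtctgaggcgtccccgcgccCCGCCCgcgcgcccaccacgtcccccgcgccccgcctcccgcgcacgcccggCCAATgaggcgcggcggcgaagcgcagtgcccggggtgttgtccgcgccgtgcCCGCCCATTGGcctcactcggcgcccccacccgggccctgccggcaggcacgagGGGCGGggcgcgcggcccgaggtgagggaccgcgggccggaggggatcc

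The SLC25A5 window held 5 GC boxes and 1 TATA box, and the SLC25A6 window held 4 GC boxes and 2 CCAAT boxes. The SLC25A4 window held no GC box, with 1 CCAAT box and 1 ETS core, and the SLC25A29 window held 3 GC boxes and 2 CCAAT boxes. RefSeq had 47 promoter entries for 37 of the carriers, some genes having several. These are not the 37 carriers detected below: undetected ones such as SLC25A18 are among them, and detected ones such as SLC25A16 are not. A GC box was in 30 of the 47 entries (63.8%), against 42.7% of all 34961 promoters of the same length. A CCAAT box was in 42.6% of the carrier entries against 32% of all, an ETS core in 29.8% against 16.5%, an E-box in 14.9% against 6.35%, and a TATA box in 8.51% against 10.7%. The median number of CpG pairs in a window was 19 for the carriers and 11 over all promoters. These are matches of letters in a short window and say nothing about binding.

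Libraries held 69388544 to 90205244 counts. All 12 endothelial markers were detected, and all markers of astrocytes, microglia, liver, and muscle and testis were undetected. Replicates 2 and 8, and to a lesser degree replicate 7, stood apart: GC-rich and short transcripts were higher in them, by 0.28, 0.35 and 0.09 on the log2 scale per 10 percentage points of GC in replicates 2, 8 and 7, while this slope was negative in the other 5. Per doubling of transcript length the slopes were -0.21, -0.32 and -0.10 on the log2 scale in replicates 2, 8 and 7, and positive in the other 5. The part of these differences in any single carrier was not tested, and values without replicates 2 and 8 are given beside some of the results that differ there. The share of all counts in ribosomal protein genes moved the same way, at 6.17%, 7.499% and 5.72% in replicates 2, 8 and 7 and 3.88% to 4.42% in the others.

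A carrier was called detected at a CPM (counts scaled to a common library size) of 1 or more in all 8 libraries. By this rule 37 of the 45 carriers were detected, beside 51.3% of all listed genes. The level of a gene is given per length, as CPM per kilobase of transcript (RPKM), wherever genes are compared with each other. Detected carriers ran from 1.36 RPKM for SLC25A34, a carrier with no settled substrate, to 276 RPKM for SLC25A3. Their median was 12.6 RPKM, beside 12.8 RPKM over the 11627 detected genes with a length. SLC25A3, SLC25A6 and SLC25A5 ranked 223, 243 and 247 among these genes, and SLC25A39, the next carrier, ranked 1326. The level and rank of SLC25A3 rest on a length limited to the interval listed for the gene. With its full transcript it was at 74.6 RPKM, beside 63.6 RPKM for SLC25A39.

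**Figure D1:**
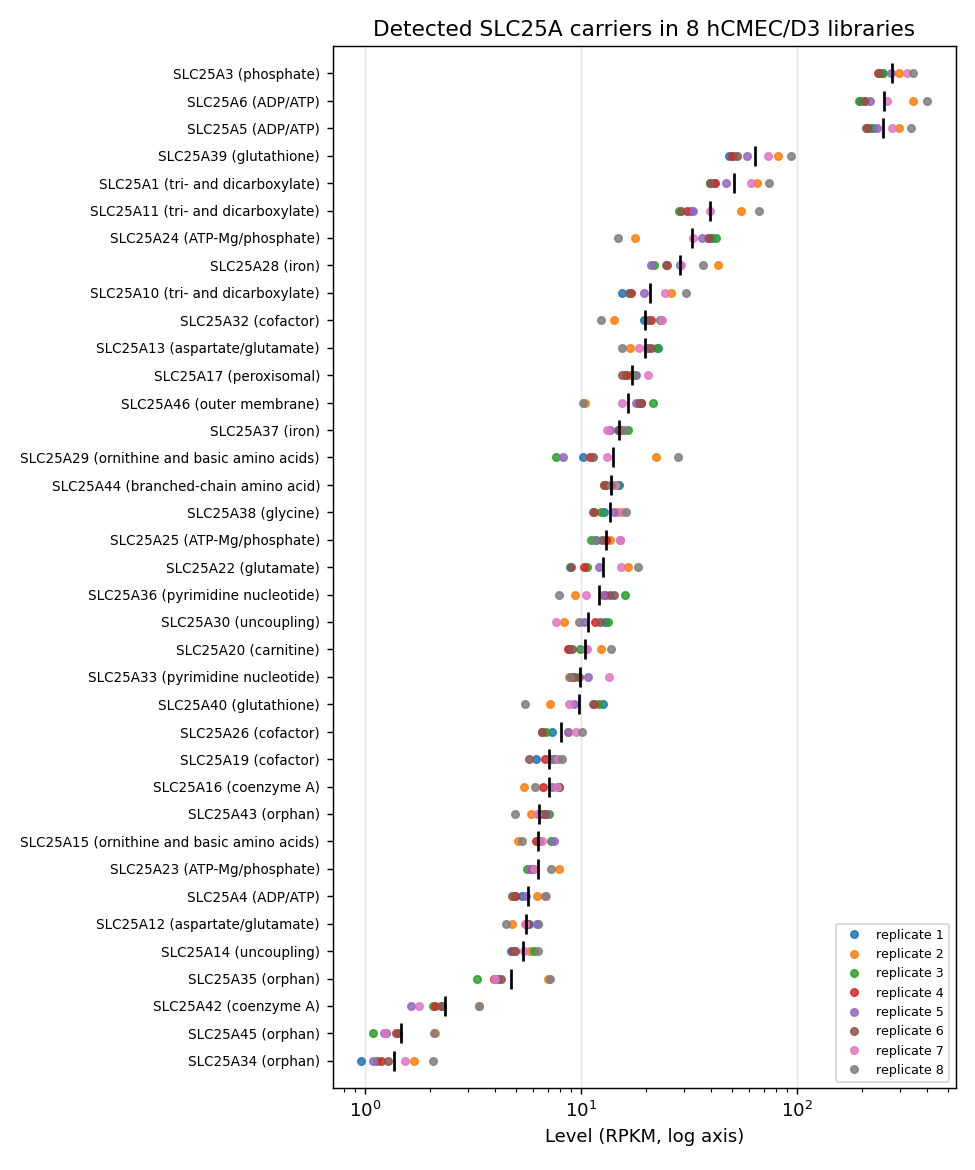
Level in RPKM (log axis) of the 37 detected SLC25A carriers, ordered by mean, with the substrate class in brackets. Each point is 1 of 8 replicates and each black bar is the mean. SLC25A3, SLC25A6 and SLC25A5 are at 193.7 RPKM or more in every library while SLC25A39, next in order, has a mean of 63.6 RPKM. Lengths are limited to the listed intervals, and with its full transcript SLC25A3 has a mean of 74.6 RPKM.

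The 8 undetected carriers were SLC25A2, SLC25A18, SLC25A21, SLC25A27, SLC25A31, SLC25A41, SLC25A47 and SLC25A48. SLC25A48 had no count in any library, where 3 read pairs would have given 0.0665 to 0.0880 CPM. SLC25A31, the testis ADP/ATP carrier, had 3 read pairs over all libraries and none in 5 of them. SLC25A2, a close relative of the ornithine carrier SLC25A15, had 5 read pairs in all. Many of these genes are known from other tissues, such as SLC25A47 from liver and SLC25A27 from brain. SLC25A47 had 9 read pairs in all and SLC25A27 had 36, with 0.110 ± 0.0957 CPM (SD, n = 8). SLC25A21, the oxodicarboxylate carrier, had 22 read pairs and SLC25A41 had 30. SLC25A18 was nearest to the limit, at 0.877 ± 0.220 CPM (SD, n = 8), with some libraries above 1 CPM and others below.

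The family summed to 1292 ± 210.3 RPKM (SD, n = 8), and its counts were 0.233% ± 0.0247 of all counts. The ADP/ATP carriers were the largest class, with 38.98% ± 3.02 of the summed RPKM (range 36.3% to 44.3%), and the phosphate carrier followed with 21.4% ± 1.04. The other classes were smaller: 8.47% ± 1.05 for the tri- and dicarboxylate carriers, 5.66% ± 0.231 for the glutathione carriers, 4.20% ± 1.25 for the ATP-Mg/phosphate carriers and 3.39% ± 0.375 for the iron carriers. SLC25A3, SLC25A5 and SLC25A6 together made up 59.96% ± 2.48. These shares depend on the length used. The ADP/ATP share ran from 30.45% with no length to 51.7% with the union of all exons. With full annotated transcripts the phosphate carrier had 7.15% ± 0.446, below the 10.4% ± 1.13 of the tri- and dicarboxylate carriers, and SLC25A3, SLC25A5 and SLC25A6 together had 54.67% ± 2.66.

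**Figure D2:**
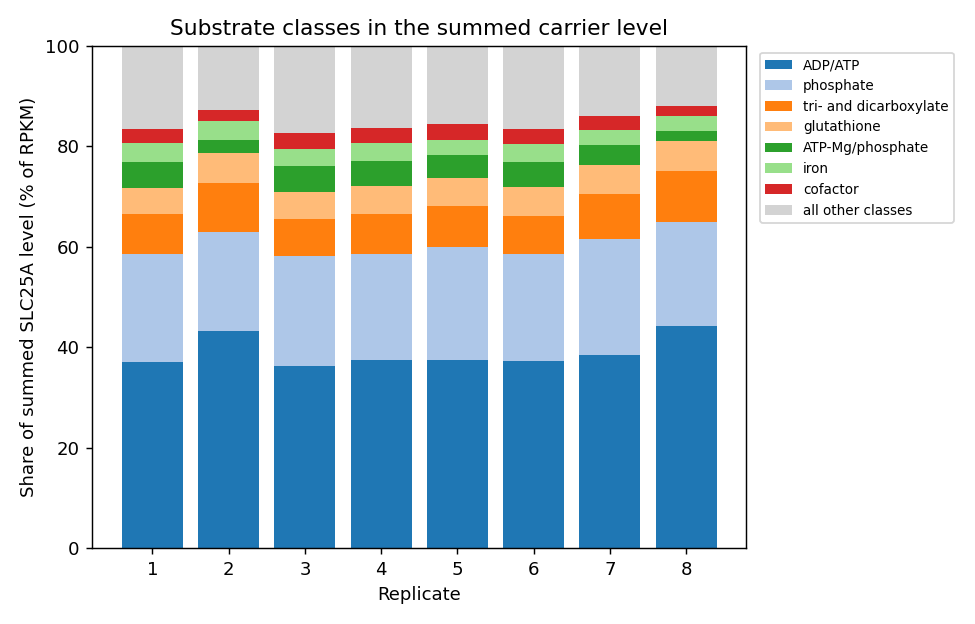
Share of the summed SLC25A level (% of RPKM, axis from 0) taken by each substrate class in each of the 8 replicates. The ADP/ATP carriers take 36.3% to 44.3% and are highest in replicates 8 and 2; the ATP-Mg/phosphate carriers are lowest in these libraries, at 2.01% and 2.63%.

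Among the ADP/ATP carriers, SLC25A5 (ANT2) and SLC25A6 (ANT3) were both abundant and SLC25A4 (ANT1), the form typical of heart and skeletal muscle, was about 43-fold lower per length. All 3 have 4 exons. SLC25A5 lies at chrX:118602363-118605359, SLC25A6 at chrX:1505045-1511039 and SLC25A4 at chr4:186064417-186071538 (GRCh37).
SLC25A5 was at 224, 296, 217, 211, 233, 209.6, 274 and 336 RPKM in replicates 1 to 8. SLC25A6, in the same order, was at 196, 345, 194, 206, 218, 204, 259.9 and 401 RPKM. Both were highest in replicate 8 and next highest in replicate 2, and the rise there was steeper for SLC25A6. SLC25A4 was at 5.29, 6.24, 4.92, 4.93, 5.56, 4.79, 6.88 and 6.80 RPKM, highest in replicates 7 and 8, and no library of it came near the range of the other ADP/ATP carriers.

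Ratios of paralogs were taken within each library on log2(RPKM + 0.1) and tested by exact two-sided permutation of their signs over the 8 libraries, adjusted over the 18 pairs in which both genes were detected. With 8 libraries the smallest p is 0.00781, or 0.00879 after adjustment, and 16 of the 18 pairs reached it. Any pair of genes with the same order in all 8 libraries gives this smallest p. Pairs of other genes were not tested beside them, so the count shows nothing particular to carriers. SLC25A5 over SLC25A4 was 5.43 ± 0.10 (SD) on the log2 scale, or 43.1-fold, positive in 8 of 8 libraries (exact adjusted p = 0.00879). SLC25A6 over SLC25A4 was 5.41 ± 0.26, or 42.6-fold, with the same p. SLC25A4 has a long annotated transcript of 4415 bases, beside 1307 for SLC25A5 and 1451 for SLC25A6, and with coding length in its place the log2 ratios fell to 3.69 and 3.83. They were 4.45 and 4.64 on the normalised values the authors deposited, so the order held on every scale tried while the size did not.

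SLC25A5 and SLC25A6 could not be ordered per transcript length. Their log2 ratio was 0.02 ± 0.17 (SD, n = 8; exact p = 0.781), with SLC25A5 higher in 6 libraries and SLC25A6 higher in replicates 2 and 8, at -0.22 and -0.26. Without replicates 2 and 8, the only libraries with SLC25A6 higher, the ratio was 0.10 (exact permutation adjusted p = 0.0331). With the remaining 6 libraries all positive, that p is the smallest they allow and does not decide the order. On CPM with no length and all 8 libraries the ratio was -0.14 (exact adjusted p = 0.0331). On the deposited normalised values SLC25A6 was higher, with a log2 ratio of -0.19 ± 0.11 (exact adjusted p = 0.00781). Of the words of 32 coding bases, 34.8% in SLC25A5, 5.21% in SLC25A6 and 0% in SLC25A4 were also found elsewhere in GRCh37. For SLC25A6 alone, matches on chromosome Y were left out, so its share is not on the same footing as the others. The annotation names 9 pseudogenes of SLC25A5 and 6 of SLC25A6, and the part of this in the counts was not tested. SLC25A5 also overlaps the antisense gene SLC25A5-AS1, and the use of strand in counting is not given in the sources used here.

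**Figure D3:**
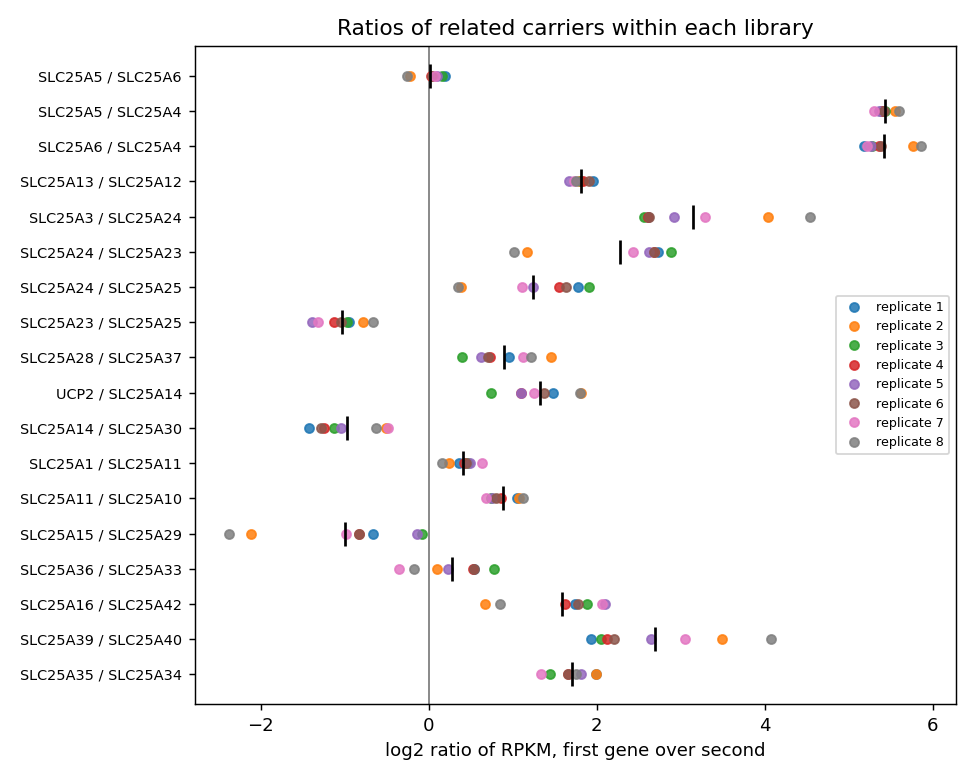
Ratio of 2 related carriers within each library, on the log2 scale of RPKM + 0.1, for the 18 pairs in which both were detected. Each point is 1 of 8 replicates and each black bar is the mean; points lie on both sides of 0 for SLC25A5 / SLC25A6 and SLC25A36 / SLC25A33, and on 1 side for the other 16 pairs.

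SLC25A3, the phosphate carrier (chr12:98987403-98995778, GRCh37), was the highest member per length as measured here. It was at 246, 295, 249, 236, 273, 239, 324 and 346 RPKM in replicates 1 to 8, with a mean of 276 ± 41.4 (SD). Replicates 8, 7 and 2 were the 3 highest. Its canonical transcript of 5984 bases extends beyond the interval listed for the gene, so the 1617 bases inside that interval were used. With the full transcript its level was 74.6 ± 11.2 RPKM, below SLC25A5 and SLC25A6, and with the union of exons it was also below both.

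The ATP-Mg/phosphate carriers are calcium-regulated and set the adenine nucleotide pool of the matrix. SLC25A24 was the highest of them, SLC25A25 came next, SLC25A23 was lowest of the 3 detected, and SLC25A41 was undetected. SLC25A24 was at 40.4, 17.8, 41.9, 38.6, 36.1, 38.9, 33.0 and 14.8 RPKM in replicates 1 to 8. Replicates 2 and 8 were far below the other 6 libraries, and the share of all genes with such a split was not counted. SLC25A25 was at 11.7, 13.6, 11.05, 13.1, 15.2, 12.5, 15.2 and 11.6 RPKM, with no such split. SLC25A23 was at 5.98, 7.86, 5.61, 5.93, 5.77, 5.99, 6.04 and 7.28 RPKM, and here replicates 2 and 8 were the highest.

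SLC25A24 over SLC25A25 was 1.25 ± 0.60 on the log2 scale, positive in 8 of 8 libraries (exact adjusted p = 0.00879), but only 0.39 in replicate 2 and 0.35 in replicate 8. Leaving out these libraries raised the mean ratio to 1.54. SLC25A24 over SLC25A23 was 2.28 ± 0.74, and 2.67 without replicates 2 and 8. SLC25A23 was below SLC25A25 in 8 of 8 libraries, with a log2 ratio of -1.03 ± 0.24 (exact adjusted p = 0.00879). Against the phosphate carrier, SLC25A3 was 8.87-fold above SLC25A24, a log2 ratio of 3.15 ± 0.76 that ran from 2.57 in replicate 3 to 4.54 in replicate 8 and was 2.77 without replicates 2 and 8. With the full annotated transcripts this ratio was 1.56.

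The aspartate/glutamate carriers are a limb of the malate-aspartate shuttle, which brings reducing equivalents from cytosolic NADH into the matrix. SLC25A13 (citrin), the form typical of liver and dividing cells, was 3.50-fold above SLC25A12 (aralar), the form typical of brain and muscle. SLC25A13 was at 22.6, 16.7, 22.4, 20.5, 20.1, 21.1, 18.5 and 15.4 RPKM in replicates 1 to 8. SLC25A12 was at 5.75, 4.78, 6.33, 5.63, 6.25, 5.55, 5.51 and 4.48 RPKM. Both were lowest in replicates 8 and 2, so their ratio moved little: 1.81 ± 0.09 on the log2 scale, from 1.67 to 1.96 (exact adjusted p = 0.00879). The ratio was between 1.497 and 2.09 with the other lengths and scales tried. The genes are alike in structure, with 18 exons each and transcripts of 3141 and 3936 bases.

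SLC25A11, the oxoglutarate carrier and the other limb of that shuttle, was at 39.3 ± 14.0 RPKM (SD, n = 8). For glutamate alone, SLC25A22 was detected at 12.6 ± 3.60 RPKM, from 8.91 in replicate 1 to 18.3 in replicate 8. Its paralog SLC25A18 was undetected at 0.423 ± 0.106 RPKM, with every library below every library of SLC25A22.

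The iron carriers, the mitoferrins, feed haem and iron-sulfur cluster assembly. SLC25A28 (mitoferrin 2), the form of most tissues, was at 28.7, 42.8, 21.7, 24.9, 21.1, 24.8, 28.9 and 36.7 RPKM in replicates 1 to 8, highest in replicates 2 and 8. SLC25A37 (mitoferrin 1), best known from red cell precursors, was at 14.8, 15.5, 16.4, 14.97, 13.6, 15.1, 13.2 and 15.8 RPKM, with no library standing apart. The log2 ratio was 0.90 ± 0.35, or 1.87-fold, positive in 8 of 8 libraries (exact adjusted p = 0.00879) and from 0.40 in replicate 3 to 1.46 in replicate 2. Coding length gave 0.59 and the full annotated transcripts 2.30, so SLC25A28 was above SLC25A37 on each while the size of the gap depended on length.

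The uncoupling proteins and their relatives are proton or anion carriers, of which 3 bear SLC25A symbols and UCP1, UCP2 and UCP3 are listed under their older names. SLC25A30 (KMCP1) was at 12.9, 8.34, 13.3, 11.6, 10.4, 12.2, 7.61 and 9.79 RPKM in replicates 1 to 8, lowest in replicates 7 and 2. SLC25A14 (UCP5) was at 4.75, 5.82, 6.03, 4.83, 4.96, 4.94, 5.43 and 6.29 RPKM, a narrow range. SLC25A14 was below SLC25A30 in 8 of 8 libraries, with a log2 ratio of -0.97 ± 0.37 (exact adjusted p = 0.00879), and -2.36 with coding length. SLC25A27 (UCP4), known from neurons, was undetected.
UCP2, which is not a member by symbol, was at 14.2 ± 4.66 RPKM, from 10.2 in replicate 3 to 22.2 in replicate 8. It was 2.52-fold above SLC25A14, with a log2 ratio of 1.33 ± 0.37 (exact adjusted p = 0.00879). UCP3, the muscle form, was at 1.15 ± 0.229 CPM and missed the rule because its lowest library was at 0.910 CPM, and UCP1, the brown fat form, had 29 read pairs in all.

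The di- and tricarboxylate carriers kept a fixed order in 8 of 8 libraries: SLC25A1, the citrate carrier, above SLC25A11, and SLC25A11 above SLC25A10, the dicarboxylate carrier. SLC25A1 was at 51.2 ± 13.7 RPKM and SLC25A10 at 20.8 ± 5.48 RPKM. The log2 ratios were 0.41 ± 0.15 for SLC25A1 over SLC25A11 and 0.89 ± 0.17 for SLC25A11 over SLC25A10 (exact adjusted p = 0.00879 for each). All 3 were highest in replicate 8 and next highest in replicate 2. SLC25A39, a carrier required for mitochondrial glutathione, was at 63.6 ± 17.2 RPKM and its paralog SLC25A40 at 9.78 ± 2.54 RPKM. On the RPKM scale these paralogs stood at opposite ends in replicate 8: SLC25A39 was highest in replicate 8, at 93.9 RPKM, where SLC25A40 was lowest, at 5.47 RPKM. Their log2 ratio of 2.70 ± 0.78 (exact adjusted p = 0.00879) therefore ran from 1.93 in replicate 1 to 4.08 in replicate 8, and was 2.33 without replicates 2 and 8. On the deposited normalised values the opposite movement was not seen: both genes were lowest in replicate 8, and the ratio was 2.14 ± 0.17. Their transcripts hold 61.5% and 34.3% GC.

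SLC25A32, the folate and FAD carrier, completed the 10 highest members at 19.7 ± 4.30 RPKM. The pyrimidine nucleotide carriers SLC25A36, at 12.1 ± 2.70 RPKM, and SLC25A33, at 9.89 ± 1.55 RPKM, could not be ordered on RPKM as measured here. Their log2 ratio was 0.27 ± 0.40, positive in 6 of 8 libraries (exact adjusted p = 0.0993). Their order depended on the length used. The ratio was 1.94 on CPM with no length, 1.98 with coding length and 1.36 with full transcripts. It was -0.71 with the union of exons (exact permutation adjusted p = 0.00879 for each of these). On the deposited normalised values it was 1.05 ± 0.27 (exact permutation adjusted p = 0.00781). Without replicate 7, the library with the lowest ratio (-0.35), the ratio on RPKM was 0.36 (exact permutation adjusted p = 0.0496). Leaving out any other single replicate gave 0.20 to 0.34 (exact permutation adjusted p = 0.0827 to 0.1985). Of the coding words of 32 bases in SLC25A33, 80.3% were found elsewhere in GRCh37, and the part of this in its count was not tested.

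SLC25A16 and SLC25A42, both linked to coenzyme A, were at 7.11 ± 0.932 and 2.35 ± 0.665 RPKM. Their log2 ratio of 1.59 ± 0.54 (exact adjusted p = 0.00879) was 0.13 with the full annotated transcripts (exact permutation adjusted p = 0.505). On RPKM this ratio was 0.67 in replicate 2, 0.85 in replicate 8 and 1.865 with both left out. SLC25A35 and SLC25A34, a pair with no settled substrate, were at 4.73 ± 1.497 and 1.36 ± 0.368 RPKM, a log2 ratio of 1.71 ± 0.23 (exact adjusted p = 0.00879) that was 0.65 with coding length. SLC25A35 overlaps RANGRF in the table. The NAD carrier pair SLC25A51 and SLC25A52 is listed under the older symbols MCART1 and MCART2. MCART1 was detected at 7.67 ± 0.707 RPKM, and MCART2 was undetected at 0.165 ± 0.0393 RPKM. Of their coding words of 32 bases, 68.8% in MCART1 and 57.1% in MCART2 were found elsewhere in GRCh37. The part of this in their counts was not tested.

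SLC25A29, a carrier of basic amino acids (chr14:100757453-100772860, GRCh37, 4 exons), had the largest spread of CPM over the 8 libraries. It was at 10.2, 22.3, 7.64, 11.01, 8.27, 11.4, 13.2 and 27.9 RPKM in replicates 1 to 8. Replicates 8 and 2 were the highest, as they were for other carriers such as SLC25A6 and SLC25A11. The share of all genes with such a split was not counted. Replicate 8 was 3.66-fold above replicate 3. Its coefficient of variation (CV) of CPM was 51.8%, and 20.2% without replicates 2 and 8, when SLC25A22 had the largest at 21.5%.
SLC25A15, the ornithine carrier of the urea cycle, was at 6.33 ± 0.836 RPKM and lowest in replicates 2 and 8. SLC25A15 over SLC25A29 was -1.001 ± 0.84 on the log2 scale, negative in 8 of 8 libraries (exact adjusted p = 0.00879), and from -0.07 in replicate 3 to -2.37 in replicate 8. It was -0.59 without replicates 2 and 8. With coding length the ratio was -0.26 (exact permutation adjusted p = 0.391), and with the union of exons it was 0.54 (exact permutation adjusted p = 0.109), so this order depended on the length. On the deposited normalised values the ratio was -1.22 ± 0.43 (exact permutation adjusted p = 0.00781). Of the coding words of 32 bases in SLC25A15, 10.7% were found elsewhere in GRCh37, and the part of this in its count was not tested.

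Variation beyond the trend of all genes was tested with the goodness-of-fit test of edgeR against its trended dispersion, with Benjamini-Hochberg adjustment over 11980 genes. SLC25A29 was the only 1 of 37 detected carriers above the trend (adjusted p = 0.0152), beside 4.83% of all detected genes. The call was lost without replicate 3 (adjusted p = 0.0704), without replicate 5 (adjusted p = 0.0643), without replicate 8 (adjusted p = 0.0611) and without replicates 2 and 8 together (adjusted p = 0.509). After each library's trend on length and GC was removed, the call was SLC25A24 (adjusted p = 0.0234) and no longer SLC25A29 (adjusted p = 0.120), beside 6.30% of all genes. With the trend on length alone removed both genes were called, beside 5.08% of all genes. DESeq2's fitted trend called 6 carriers, SLC25A6, SLC25A11, SLC25A24, SLC25A29, SLC25A40 and SLC25A46, beside 24.0% of all genes. The median CV of CPM was 18.7% for the carriers and 19.2% for all detected genes.

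The carriers with the largest CV after SLC25A29 were SLC25A11 (35.6%), SLC25A24 (32.1%), SLC25A35 (31.6%) and SLC25A6 (30.9%). The steadiest were SLC25A44, a branched-chain amino acid carrier, at 6.02%, SLC25A37 at 7.24%, SLC25A17, the peroxisomal carrier, at 9.07%, SLC25A14 at 11.1% and SLC25A43 at 11.3%. SLC25A44 was at 14.97, 12.8, 14.6, 13.1, 13.9, 12.8, 14.3 and 13.8 RPKM in replicates 1 to 8. Its GC content, 51.5%, was in the middle of the family.

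The libraries in which carriers were high or low went with GC content and, with length. In replicate 8, 16 of the 37 carriers (43.2%) had their highest level, beside 36.0% of all detected genes, and 8 (21.6%) their lowest, beside 31.1%. Across the 37 carriers, which share the same libraries and depth, the deviation of log2 CPM from the mean of the gene correlated with transcript GC with Pearson r = 0.871 in replicate 2 and 0.831 in replicate 8, and with -0.793 in replicate 1 and -0.835 in replicate 3. Over all 11627 detected genes with a length these were 0.625, 0.578, -0.629 and -0.621. In replicates 4, 5 and 6 the carriers' r was -0.693, -0.616 and -0.706, and in replicate 7 it was 0.175. With transcript length the carriers' r was -0.482 in replicate 2 and -0.521 in replicate 8, beside -0.525 and -0.589 over all genes. The 12 carriers with the highest GC (58.5% to 65.4%), among them SLC25A6, SLC25A28, SLC25A29 and SLC25A39, were above their means in replicate 8 in 12 of 12 cases, with a median of 0.58 on the log2 scale. Of the 12 with the lowest GC (34.3% to 45.9%), among them SLC25A24, SLC25A12, SLC25A13 and SLC25A40, 2 were above their means there, with a median of -0.32. The low-GC exceptions included SLC25A3, which was highest in replicate 8. Such counts were not made for other genes in the same GC ranges. Over all detected genes the GC slope in replicate 8 was 0.35 on the log2 scale per 10 percentage points. The split was therefore not shown to be particular to carriers.

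**Figure D4:**
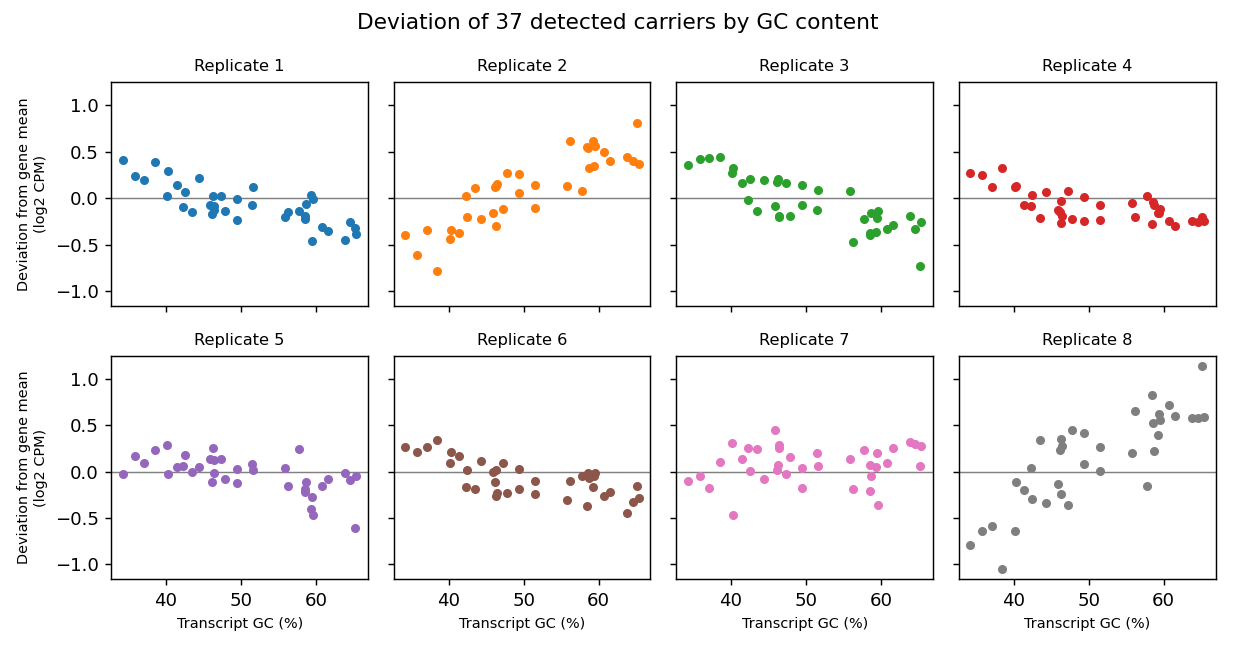
Deviation of log2 CPM from the mean of the gene (vertical axis) against transcript GC content in % (horizontal axis) for the 37 detected carriers, 1 panel per replicate. Points slope upward in replicates 2 and 8 (r = 0.871 and 0.831) and downward in replicates 1 and 3 (r = -0.793 and -0.835).

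The normalised values the authors deposited adjust each library for gene length and GC by conditional quantile normalisation (CQN), per the file headers. On them the median CV of the detected carriers was 11.1% and that of all detected genes 11.1%. The CV of SLC25A6 fell from 30.9% to 4.32% and that of SLC25A5 from 18.7% to 4.70%. That of SLC25A29 fell from 51.8% to 21.6% and that of SLC25A24 from 32.1% to 21.2%. On the log2 CQN scale SLC25A24 was at 6.63 in replicate 2 and 6.44 in replicate 8, and between 7.24 and 7.35 in the other 6. The gap in replicates 2 and 8 was thus also there on the deposited values. SLC25A4 went the other way: its CV rose from 15.04% to 26.8%, the largest of the 37 carriers on this scale. The CV of SLC25A37 rose from 7.24% to 16.2%.

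**Figure D5:**
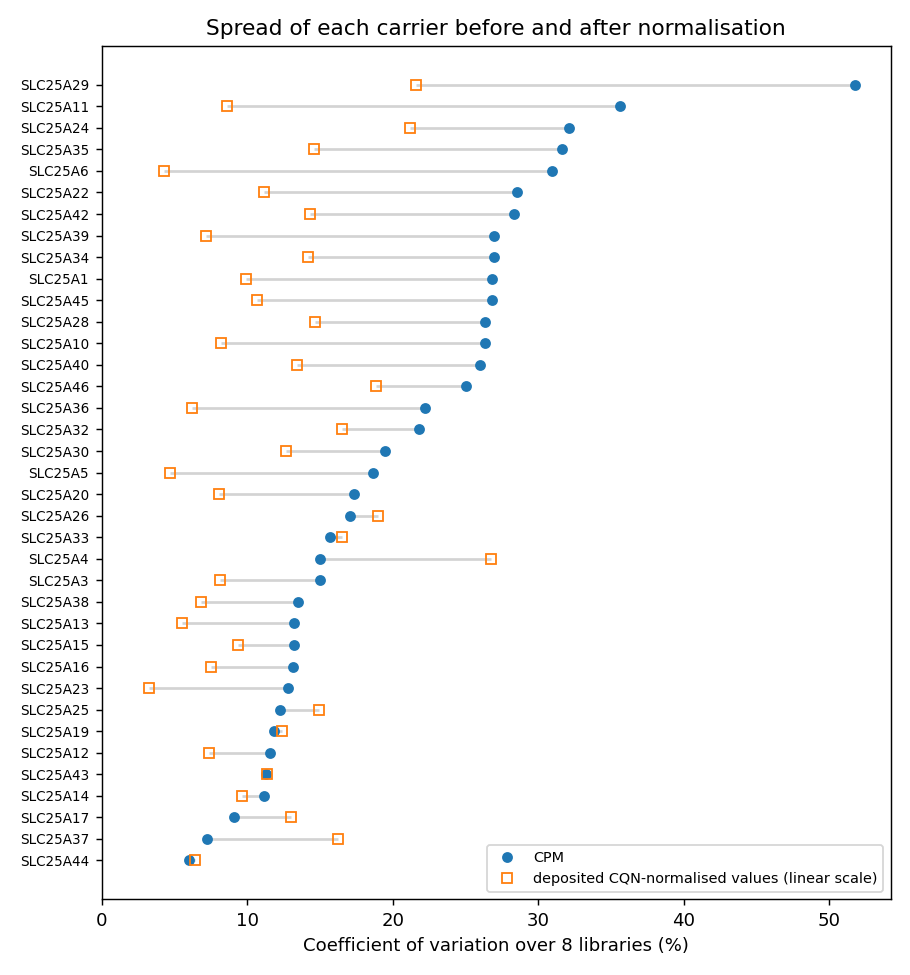
Coefficient of variation (%) over 8 libraries of each detected carrier, ordered by the value on CPM (filled circles) and set beside that on the deposited CQN-normalised values on a linear scale (open squares). SLC25A6 drops from 30.9% to 4.32%, SLC25A29 and SLC25A24 are at 21.6% and 21.2%, and SLC25A4 rises from 15.04% to 26.8%.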

How the data were processed

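Polyadenylated RNA of 8 replicates was sequenced from TruSeq v2 libraries, per the labels' protocols. The submitters' processing notes name CASAVA 1.9, TopHat2 2.0.6, HTSeq and hg19. Annotation, strand use and the treatment of reads with several matches are not given in the sources used here. The authors deposited raw whole-number counts per gene and CQN-normalised values, per the file headers, the latter read as log2 from the deposited values. All 186768 counts were even (0 odd), so read pairs are halved counts, and the floor for a count of 0 is 3 read pairs, which covers counting error only. The table held 0 mitochondrial genes.

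CPM used TMM-scaled library sizes (edgeR 4.0.16, R 4.3.3). RPKM used the canonical GENCODE 44 transcript lifted to GRCh37, matched by symbol (19467 genes) or synonym (1989) and limited to the interval listed for the gene, a limit chosen after seeing the files. Of 11980 detected genes, 11627 (97.1%) had a length. Table starts count from 0 and are printed from 1. Paralog pairs (26 listed, 18 tested) used exact sign-flip permutation over 256 patterns with a pseudocount of 0.1. The variation test was edgeR's goodness-of-fit test on an intercept-only model, at an adjusted p under 0.05, with DESeq2 1.42.0 as an alternative. On simulated counts it called 0 of 11980 genes with none changed, and 182 of 200 genes raised 4-fold in 1 library with 4 of 11780 unchanged ones. These counts were drawn from the fitted trend without the length and GC slopes of the real libraries. They therefore do not show how the test behaves where such slopes are present. Members, classes, pairs and lists were chosen with earlier results of these data known. Named were all genes of the ADP/ATP, aspartate/glutamate, glutamate, phosphate, ATP-Mg/phosphate, iron and uncoupling classes and of the pairs, the 10 highest, those above the trend, the 5 most and 5 least variable, all undetected members, and the 3 highest of each other list, of which 1 gene is not reported here. Substrate classes come from background knowledge. Alternatives covered length, scale, pseudocount, detection, trend and replicates.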

Additional observations from a re-analysis of the deposited data

Results flagged for a closer look

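SLC25A33 stood out in replicate 7, at 13.4 RPKM, where the next highest of the 8 libraries was at 10.7 RPKM. The gap was 0.574 of the whole range, above the critical value of 0.526 in Dixon's test for 8 samples. This was 1 of 56 values or ratios tested, and chance flags about 1 in 20. SLC25A33 shares 80.3% of its coding words of 32 bases with other places in GRCh37, and the part of this in the value of replicate 7 was not tested.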

How the results depend on the processing

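The count of 37 detected carriers was 36 to 38 under the alternatives run, and that of 16 pairs past the threshold was 16 to 18. Of 270 pair ratios under alternatives, 253 kept their direction and side of the threshold, 8 reversed, 3 lost the call and 6 gained it. SLC25A5 over SLC25A6 (0.02, log2) was -0.14 on CPM, -0.14 with the union of exons, -0.14 with coding length, -0.19 on the deposited values and 0.10 with replicates 2 and 8 left out. Leaving out 1 replicate gave -0.0099 to 0.054. SLC25A15 over SLC25A29 was 0.54 and SLC25A36 over SLC25A33 -0.71 with the union of exons. The cause was not tested. Carriers above the variation trend numbered 6 with DESeq2's fitted trend, which called 24.0% of all genes, 2 with the length trend removed and 0 with replicates 2 and 8 left out (0 at an unadjusted p under 0.05), and 0 to 1 without 1 replicate (2 at an unadjusted p under 0.05 in each such fit). The ADP/ATP share of 38.98% was 30.45% on CPM, 51.7% with the union of exons, 34.26% with coding length and 48.06% with full transcripts. The median CV of 18.66% was 14.79% with the length trend removed, 11.46% with length and GC removed, 11.13% on the deposited values and 11.59% with replicates 2 and 8 left out. Full transcripts, GC removal, halved counts and leaving out both libraries were chosen after seeing the data. Samples could not be paired with each other because all form 1 group, and the ratios pair 2 genes within each library. Counting error matters most for the undetected genes, and RPKM rests on 1 transcript a gene.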

Other observations

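Genes that act beside the carriers were described from lists, with RPKM as mean ± SD over the 8 libraries. Of the import machinery of the outer and inner membranes, 17 of 17 genes were detected and 0 were above the edgeR variation trend. Its 3 highest genes were TIMM23, the channel for proteins with a presequence, at 73.8 ± 8.46 RPKM, TOMM22, a receptor of the outer membrane, at 69.5 ± 11.9 RPKM, and TOMM40, the outer membrane channel, at 65.1 ± 16.3 RPKM. TIMM22, the channel that inserts carrier proteins into the inner membrane, was at 23.3 ± 4.59 RPKM and was chosen after its values were seen. The outer membrane channels VDAC2, VDAC1 and VDAC3, through which metabolites reach the carriers, were at 155 ± 19.3, 154 ± 10.4 and 107 ± 9.31 RPKM. Each VDAC was below SLC25A5 and SLC25A6 in mean level per length. Each was also below SLC25A3 at 276 RPKM with its length limited to the listed interval, but above it at 74.6 RPKM with the full transcript.

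Other transport proteins of the inner membrane were detected in 12 of 12 cases, with GHITM at 92.9 ± 6.34 RPKM and SFXN3, a sideroflexin, at 19.996 ± 0.668 RPKM. MTCH1 and MTCH2, outer membrane relatives of the carriers that do not bear SLC25A symbols, were at 142 ± 26.6 and 54.3 ± 5.15 RPKM. Of the regulators of mitochondrial biogenesis 9 of 10 were detected, led by TFAM, which packages mitochondrial DNA, at 38.8 ± 7.77, PPRC1 at 18.4 ± 2.57 and ESRRA at 14.9 ± 4.03 RPKM. The undetected one was PPARGC1A, which had 3 read pairs over all libraries and none in 6 of them. Among markers of other cells, SYT1 was detected of 6 neuron markers, KRT19 of 5 epithelial markers, and ACTA2, RGS5 and PDGFRB of 6 mural markers, each below 4 RPKM in the mean.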
